A study of Homo sapiens with 10 samples.

Results

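The messages described here are those of 10 chaperones and disulfide isomerases of the endoplasmic reticulum (ER), HSPA5, HSP90B1, CALR, CANX, P4HB, PDIA3, PDIA4, PDIA6, PPIB and HYOU1, chosen by gene symbol among the 26134 genes of the deposited table, where each symbol had 1 entry. They were measured in MDA-MB-231, a human triple-negative breast cancer cell line of mesenchymal character, to ask which RNAs are enriched in cell protrusions. Single cells trapped in a microfluidic array extended protrusions over 6 h, were fixed in paraformaldehyde, and were cut by laser capture into protrusions and bodies, whose polyadenylated RNA was amplified before sequencing. Fixation was in 4% paraformaldehyde for 15 min, and the cDNA was made with the SMART-Seq v4 kit. There were 5 protrusion libraries and 5 libraries of the corresponding cell bodies, each numbered 1 to 5, and both groups shared the line, the incubation and the fixation, with no genetic change or drug named. The labels do not give the number of cells in a library, and a lower value from fewer cells carrying a message and from less of it per cell cannot be told apart in such bulk libraries. Whether each number stands for a culture of its own is not in the labels, and the p-values therefore speak only of the variation among these 10 libraries, part of which may be technical.

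Proteins bound for secretion or for membranes fold in the ER. The HSP70 chaperone HSPA5 (BiP) and the HSP90 chaperone HSP90B1 (GRP94) bind unfolded stretches there, HYOU1 exchanges the nucleotide of HSPA5, and the lectins CALR and CANX hold glycoproteins while PDIA3 forms their disulfide bonds. P4HB, PDIA4 and PDIA6 are further disulfide isomerases, and PPIB is a cyclophilin that turns proline bonds, in procollagen among other clients. Their messages are translated at the ER membrane, and most are induced together by the unfolded protein response, in which ATF6 and the transcription factor NF-Y act through the ER stress response element (ERSE) of their promoters.

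The ERSE was looked up in RefSeq promoter windows (GRCh38.p14), each running from 250 bases before to 50 bases after a gene start, because it is the sequence feature by which these genes are known to be regulated together. The motif searched was CCAAT, then 9 bases of any kind, then CCACG, on both strands, so that every match also contains a CCAAT box. Of the 9 members matched to a window by symbol, 5 held this motif, with 2 matches in HSP90B1, against 25 of 27305 genes (0.0916%) with a window of the same length. The element was first defined on promoters of this gene family, so the count describes the members and is not independent of how such genes are known. PDIA3 had no entry. A second form, ERSE-II, with ATTGG, 1 base of any kind and CCACG, was found only in HYOU1 among the members, in 2 places, and in 19 of all genes (0.0696%). The windows of P4HB, PDIA4 and PPIB held neither set of letters, which says nothing of sites with other letters or outside the window. The matches are shown with 20 bases on each side, 5′ to 3′ on the strand of the gene, with the match in capitals. A match on the opposite strand appears as the reverse complement and starts with CGTGG.
HSPA5 (chr9:125241371-125241429, minus strand): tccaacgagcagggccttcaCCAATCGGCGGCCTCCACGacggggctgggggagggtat
HSP90B1, first match (chr12:103930196-103930254, plus strand): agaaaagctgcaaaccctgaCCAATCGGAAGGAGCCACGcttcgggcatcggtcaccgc
HSP90B1, second match (chr12:103930301-103930359, plus strand): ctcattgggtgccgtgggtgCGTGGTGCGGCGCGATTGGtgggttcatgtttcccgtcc
CALR (chr19:12938364-12938422, plus strand): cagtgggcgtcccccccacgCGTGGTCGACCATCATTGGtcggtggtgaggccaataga
CANX (chr5:179698758-179698816, plus strand): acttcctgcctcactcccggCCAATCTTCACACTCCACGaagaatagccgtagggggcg
PDIA6 (chr2:10812833-10812891, minus strand): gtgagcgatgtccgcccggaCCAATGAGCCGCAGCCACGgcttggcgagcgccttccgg
HYOU1, ERSE-II, first match (chr11:119057360-119057410, minus strand): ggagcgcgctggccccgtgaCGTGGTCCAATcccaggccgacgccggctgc
HYOU1, ERSE-II, second match (chr11:119057254-119057304, minus strand): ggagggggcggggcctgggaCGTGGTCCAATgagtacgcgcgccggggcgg

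Levels are scaled TPM, a length-normalised unit inferred from the values, and are given as mean ± SD over n = 5 libraries a group unless single libraries are named. PPIB was by far the most abundant of these messages, at a mean of 357 over the 10 libraries, and ranked first in each of them. PDIA6 (49.8), CALR (45.8), HSP90B1 (42.8), CANX (34.6), P4HB (28.5) and PDIA3 (28.4) followed. Within this run every neighbour's range overlapped the next in both groups, so neighbours were not told apart by their ranges. Messages further apart in the run could differ, as PDIA6 was 1.34 to 3.07 times PDIA3 within a library, and so higher in all 10 libraries. HSPA5 came below all of them at 9.90, then PDIA4 at 4.68 and HYOU1 at 0.912. Ranks 1, 8, 9 and 10 were held by PPIB, HSPA5, PDIA4 and HYOU1 in all 10 libraries, protrusions and cell bodies alike. The BiP message, which encodes the central HSP70 of the ER, was thus lower per length than the messages of both lectins and of GRP94 in every library.

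In the comparison of protrusions with cell bodies, 0 of the 9 tested members passed the threshold of limma's test without a block (adjusted p under 0.05, Benjamini-Hochberg over all 10894 tested genes), where 4.28% of all tested genes were called higher in protrusions and 21.5% lower. At an unadjusted p under 0.05 there were 2, CALR and P4HB, both higher in protrusions. HYOU1, at 1 or more in too few libraries, was not tested. Same-numbered protrusion and cell body libraries deviated together across genes, and with the number as a block 3 of the 9 members were called higher in protrusions, CALR, PDIA6 and P4HB, and 0 lower, against 13.0% of all tested genes called higher and 25.4% lower in that fit. At an unadjusted p under 0.05 the blocked limma fit gave 5 members, those 3 with PPIB and HSP90B1. The groups overlapped for all 10 members, while 3.46% of tested genes lay wholly above in protrusions and 18.4% wholly below.

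**Figure D1:**
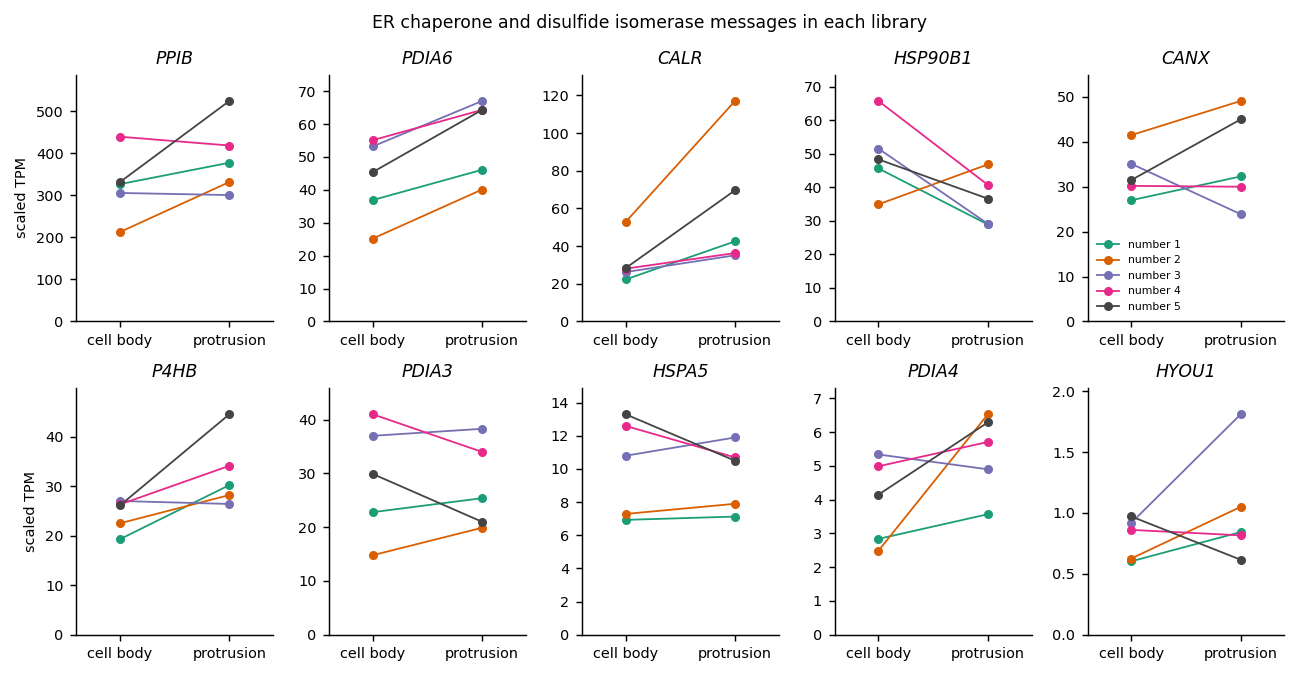
Scaled TPM of each of the 10 messages (vertical axes, linear, from 0) in cell bodies and protrusions, with 1 point per library and a line joining the 2 libraries of the same number. The protrusion end is the higher one on all 5 lines for CALR and PDIA6 and on 4 for P4HB, and the lower one on 4 for HSP90B1, with number 2 as the exception.

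CALR, the soluble lectin, was called higher in protrusions in the blocked fit and CANX, the membrane-bound one, was not. CALR stood at 42.5, 117, 35.1, 36.3 and 69.6 in protrusions 1 to 5 and at 22.3, 52.8, 26.2, 28.0 and 28.3 in cell bodies 1 to 5. Number 2 was the highest library in both compartments, and each protrusion exceeded the cell body of its own number, by 1.90, 2.21, 1.34 and 2.46 times in numbers 1, 2, 3 and 5 and by the least in number 4, although the groups overlapped through cell body 2. The means were 60.0 ± 34.6 against 31.5 ± 12.1. The log2 change, on the scale of log2(value + 1), was 0.81 ± 0.32 (SE, adjusted p = 0.0826), and with the block 0.81 ± 0.15 (SE, adjusted p = 0.00136). In the blocked fit the adjusted p stayed between 0.00134 and 0.00927 when both libraries of any 1 number were left out. Protrusions lay above their own cell bodies in all 5 numbers in 17.0% of tested genes. CANX ranged from 23.9 to 49.1 in protrusions and from 27.0 to 41.5 in cell bodies, and its log2 change was 0.09 ± 0.21 (SE, limma adjusted p = 0.805 without and 0.686 with the block). It was higher in the protrusion in 3 of 5 numbers. The ratio of CALR to CANX within a library, which does not depend on the scaling of libraries, was 1.21 to 2.38 in protrusions and 0.746 to 1.27 in cell bodies, higher in the protrusion in 5 of 5 numbers. It was not among the planned ratios, draws on the same CALR values and has no test. Of the other unplanned ratios between members, P4HB to PDIA3 was higher in the protrusion in 3 of 5 numbers and HSPA5 to HSP90B1 in 4 of 5, both with overlapping ranges.

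Among the disulfide isomerases, PDIA6 and P4HB were called in the blocked fit and PDIA3 and PDIA4 were not. PDIA6, which has thioredoxin domains and associates with HSPA5, was 46.1, 40.1, 67.0, 64.3 and 64.3 in protrusions 1 to 5 and 36.9, 25.2, 53.2, 55.1 and 45.4 in cell bodies 1 to 5. Numbers 1 and 2 were low in both compartments, and the protrusion exceeded its own cell body each time, by 1.17 to 1.59 times. Its log2 change was 0.40 ± 0.23 (SE, adjusted p = 0.240), and with the block 0.40 ± 0.11 (SE, adjusted p = 0.0134). Leaving out both libraries of 1 number kept the blocked adjusted p between 0.0259 and 0.0476. P4HB, the founding disulfide isomerase and the β subunit of collagen prolyl 4-hydroxylase, was 30.2, 28.2, 26.4, 34.1 and 44.5 in protrusions 1 to 5 and 19.3, 22.5, 27.0, 26.3 and 26.1 in cell bodies 1 to 5. Only protrusion 3 fell within the cell body range, and number 3 was the single one without a higher protrusion. The means were 32.7 ± 7.20 and 24.2 ± 3.29, with a log2 change of 0.40 ± 0.18 (SE, adjusted p = 0.127). With the block the adjusted p was 0.0390, and it became 0.134, 0.0940 and 0.139 without numbers 1, 4 and 5. P4HB therefore rested on single numbers, where CALR and PDIA6 did not in that fit.

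PDIA3, the partner of the lectins, spanned 19.9 to 38.3 in protrusions and 14.8 to 41.0 in cell bodies. Its log2 change was -0.03 ± 0.27 (SE, adjusted p = 0.952, and 0.895 with the block), and it was higher in the protrusion in 3 of 5 numbers. PDIA4, a larger isomerase of the same family, was 5.40 ± 1.20 against 3.96 ± 1.27, for a difference of 0.38 ± 0.24 (log2, SE, limma adjusted p = 0.276 without and 0.180 with the block, and 0.0182 after quantile normalization). The ratio of PDIA6 to PDIA3 within a library was 1.75 to 3.07 in protrusions and 1.34 to 1.71 in cell bodies, so that these ranges did not overlap. That ratio was chosen after the values had been seen and has no test.

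HSP90B1, the HSP90 chaperone of the ER, had the most negative change of the members and was not called. It was 28.9, 46.8, 29.1, 40.7 and 36.6 in protrusions 1 to 5 and 45.6, 34.9, 51.5, 65.7 and 48.3 in cell bodies 1 to 5. Protrusions held 0.564 to 0.757 of the level of their own cell body in numbers 1, 3, 4 and 5, and 1.34 times in number 2. The means were 36.4 ± 7.70 and 49.2 ± 11.2, for a difference of -0.42 ± 0.20 (log2, SE, limma adjusted p = 0.149 without and 0.0711 with the block). Without both libraries numbered 2 the log2 change was -0.63 (adjusted p = 0.0147, and 0.00159 with the block), so number 2 decided this call. After rescaling to a common sum the log2 change of HSP90B1 was -0.07 (adjusted p = 0.840).

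HSPA5, the central chaperone, varied more by number than by compartment. It was 7.13, 7.90, 11.9, 10.7 and 10.5 in protrusions 1 to 5, and 6.93, 7.29, 10.8, 12.6 and 13.3 in cell bodies 1 to 5. Numbers 1 and 2 were low and numbers 3, 4 and 5 high on both sides, and the log2 ratio of a protrusion to its own cell body ran from -0.34 to 0.14. The log2 change was -0.05 ± 0.23 (SE, adjusted p = 0.898, and 0.817 with the block). HYOU1, which recharges HSPA5 with ATP, was near the lower limit of use at 0.616 to 1.81 in protrusions and 0.603 to 0.971 in cell bodies. In a fit with no filter its log2 change was 0.15 ± 0.18 (SE, adjusted p = 0.618).

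PPIB, the cyclophilin, was 378, 332, 301, 419 and 525 in protrusions 1 to 5 and 327, 213, 306, 439.9 and 332 in cell bodies 1 to 5. Protrusions were higher in numbers 1, 2 and 5, by 1.16, 1.56 and 1.58 times, and within 0.951 to 0.984 of the cell body in numbers 3 and 4. The log2 change was 0.28 ± 0.20 (SE, adjusted p = 0.353, and 0.0836 with the block).

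How many members passed depended on the scaling, since the sum of the values in a library was 737343 to 1103254 in protrusions and 967421 to 1390253 in cell bodies. As deposited, the median log2 change was 0.28 over the 9 members and -0.03 over the tested genes. After rescaling to a common sum these became 0.64 and 0.24. CALR (1.16, adjusted p = 0.00639) and P4HB (0.75, adjusted p = 0.0347) were then called higher without a block and 0 members lower, where 14.1% of tested genes were called higher and 17.2% lower. The same scaling with the block, chosen after the data had been seen, called 6 of the 9 members higher, CALR, CANX, P4HB, PDIA4, PDIA6 and PPIB, and 0 lower, against 33.8% of tested genes higher and 19.8% lower. As deposited, CALR had the highest and HSP90B1 the lowest log2 change of the 9 members. Rescaling shifts the log2 changes of all genes by nearly the same amount, so the same order after it is no further support.

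**Figure D2:**
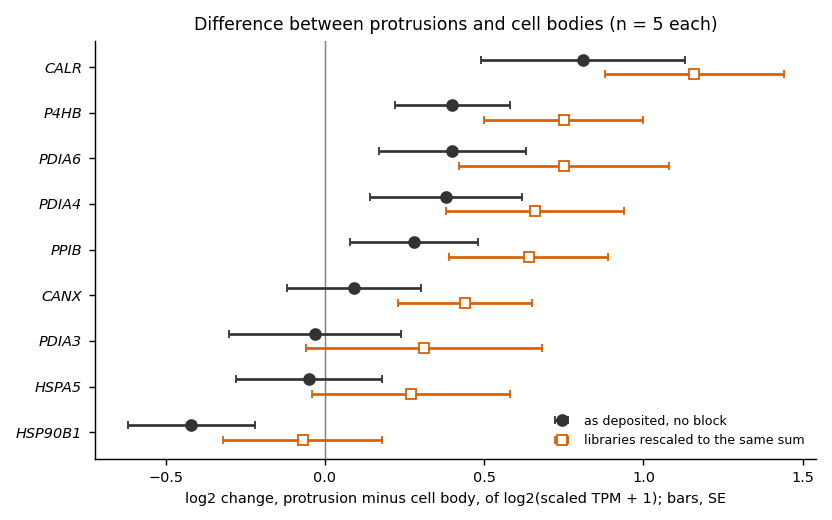
Log2 change, protrusion minus cell body, of log2(scaled TPM + 1) for the 9 tested members, with bars for SE and n = 5 libraries a group, as deposited and after rescaling to a common sum. Rescaling moves every point to the right, CALR from 0.81 to 1.16 and HSP90B1 from -0.42 to -0.07.

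The composition of the group does not depend on a library's scaling, and it is given as a description, with no test over the members. PPIB made up 51.2% to 63.8% of the summed level of the 10 messages in protrusions and 51.3% to 63.9% in cell bodies. HSP90B1 made up 4.86%, 7.23%, 5.38%, 6.03% and 4.44% in protrusions 1 to 5 and 8.93%, 8.40%, 9.31%, 9.33% and 8.62% in cell bodies 1 to 5. Every protrusion was below every cell body in this share. In number 2 the level of HSP90B1 itself was higher in the protrusion, at 46.8 against 34.9, so the share also reflects the levels of the other messages. CALR made up 7.14%, 18.0%, 6.50%, 5.38% and 8.46% in protrusions and 4.37%, 12.7%, 4.73%, 3.97% and 5.05% in cell bodies, higher in the protrusion of each number. Of the 9 messages without PPIB, HSP90B1 was 13.7% ± 1.61 in protrusions and 21.8% ± 3.16 in cell bodies. CALR was 21.7% ± 9.27 and 14.4% ± 6.64, and HSPA5 3.69% ± 0.933 and 4.46% ± 0.901. CALR stood at 0.892 to 2.49 times HSP90B1 in protrusions and at 0.426 to 1.51 times in cell bodies, where cell body 2 was the only one above 0.586. This ratio was also unplanned and has no test.

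**Figure D3:**
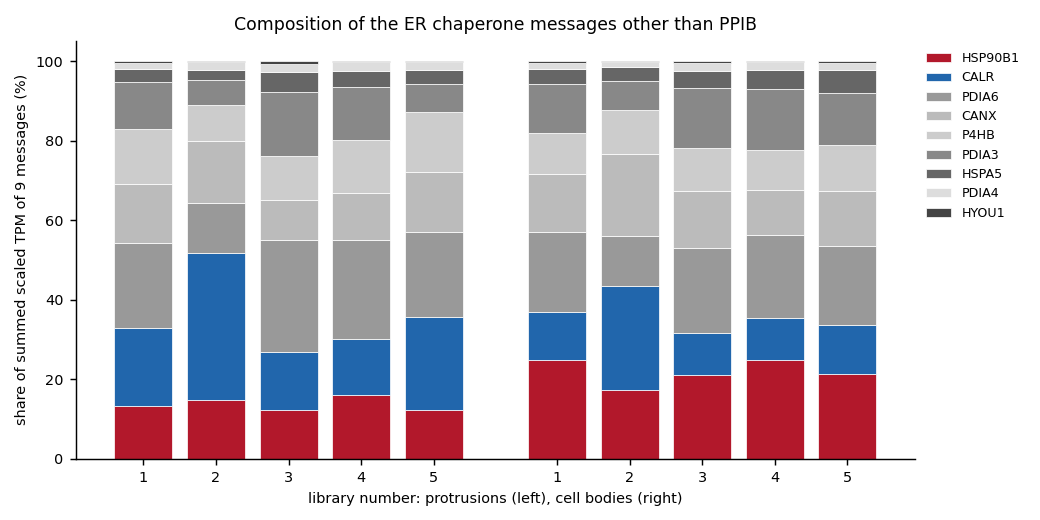
Share of each message in the summed scaled TPM of the 9 members other than PPIB (vertical axis, percent) in the 5 protrusion and 5 cell body libraries by number. HSP90B1 (red) takes 12.2% to 15.9% in protrusions and 17.3% to 24.8% in cell bodies, and CALR (blue) takes the largest share, 36.9%, in protrusion 2.

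Each of 3 members was compared with its cytosolic paralogue within a library, as a ratio that the library's factor cannot change. PPIB relative to PPIA, the abundant cytosolic cyclophilin, was 0.0573, 0.0473, 0.0505, 0.0588 and 0.0877 in protrusions 1 to 5 and 0.0275, 0.0195, 0.0339, 0.0376 and 0.0345 in cell bodies 1 to 5. The groups did not overlap. The log2 ratio differed by 0.98 (exact two-sided permutation p = 0.00794, the smallest this design can give, and 0.0238 adjusted over 3 ratios). In pairs by number an exact permutation of signs gave p = 0.0625, also the smallest possible. Without both libraries numbered 5 the difference was 0.89 (exact permutation p = 0.0286, adjusted p = 0.0857). PPIA itself fell in protrusions, at 6534 ± 548 against 10634 ± 1259 (limma log2 change -0.70 ± 0.13 SE, adjusted p = 0.000962), and has many near-identical pseudogene copies that may share its reads. After quantile normalization, which changes ratios, the difference was 0.33 (exact permutation p = 0.167) and PPIA was no longer called (limma adjusted p = 0.826).

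HSP90B1 relative to HSP90AB1, the constitutive cytosolic HSP90, was 0.107 to 0.192 in protrusions and 0.136 to 0.201 in cell bodies. It was lower in the protrusion in every number but 2, a log2 difference of -0.34 (exact permutation p = 0.0952, adjusted p = 0.143). Without protrusion 2 it was -0.48 (exact permutation p = 0.0159, adjusted p = 0.0238). HSPA5 relative to HSPA8, the constitutive cytosolic HSP70, was 0.0176 to 0.0567 in protrusions and 0.0132 to 0.0748 in cell bodies, a log2 difference of 0.29 (exact permutation p = 0.571). In both compartments the highest ratio was that of number 5, where HSPA8 was lowest, at 186 in the protrusion against 368 to 424 in the other 4 and at 178 in the cell body against 524 to 585.

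**Figure D4:**
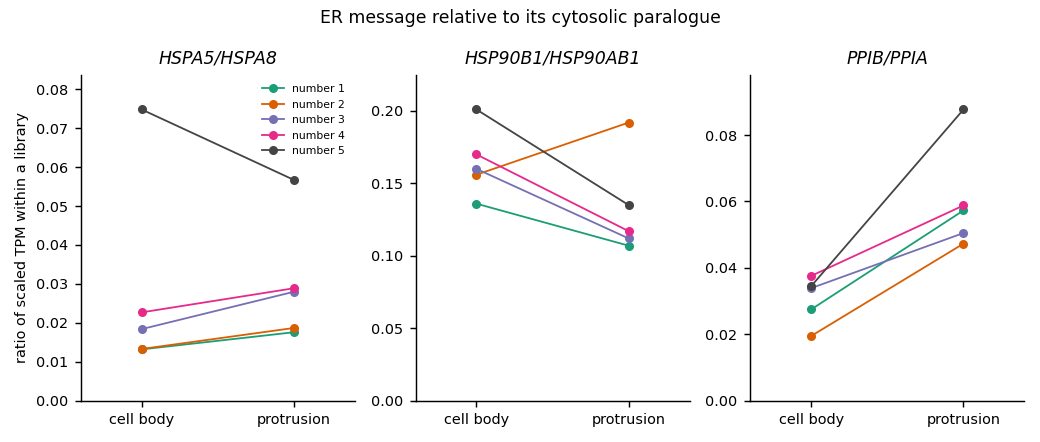
Ratio of the ER message to its cytosolic paralogue within a library (vertical axes, linear, from 0) in cell bodies and protrusions, with lines joining libraries of the same number. The protrusion end is higher on all 5 lines for PPIB to PPIA and lower on 4 for HSP90B1 to HSP90AB1, and number 5 stands apart in HSPA5 to HSPA8 at 0.0748 and 0.0567.

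Number 5 also stood apart in several genes of the stress response, in both of its libraries. DDIT3, the CHOP transcription factor of the stress response, was 7.04, 16.3, 15.3, 15.2 and 192 in protrusions 1 to 5 and 17.1, 12.4, 22.9, 20.2 and 209 in cell bodies 1 to 5. Against the median of the other 4 libraries of its group, number 5 was 12.6 times higher in the protrusion and 11.2 times in the cell body. HERPUD1, an ER membrane protein of the degradation machinery, was 3.04 and 2.40 times higher, the transcription factor XBP1 3.64 and 1.93 times, ATF4 1.83 and 2.02 times, and DNAJB9, an HSPA5 co-chaperone, 13.4 and 2.28 times. The 13.4 times of DNAJB9 stands on a median of 0.599 in protrusions 1 to 4, below the filter of 1, so its size is uncertain. Other factors that work with HSPA5 did not all rise in both libraries. SIL1 was 1.80 and 1.32 times the median of the other libraries, DNAJB11 2.12 and 0.865 times and SDF2L1 1.31 and 0.890 times. Named after their values had been seen, CHAC1, a target of ATF4, was 4.11 in protrusion 5 and 2.76 in cell body 5 and at most 0.493 elsewhere, and PPP1R15A, which reverses the block of translation, was 1.95 and 2.16 times higher. Of the 16 tested sensors and targets of the response, 8 had their highest value in number 5 in both compartments, namely XBP1, ATF4, DDIT3, PPP1R15A, TRIB3, HERPUD1, CREB3L2 and CEBPB, against 5.66% of all tested genes. Number 5 was singled out after values of these same genes had been seen, so this count is a description and no further support.

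Of the 9 tested members, 0 were highest in number 5 in both compartments, a count from which nothing is read beside a share of 5.66%. P4HB and PPIB were highest in protrusion 5 and HSPA5 in cell body 5. HSPA5 in number 5 was 1.14 times the median of the other protrusions and 1.48 times that of the other cell bodies, HSP90B1 1.05 and 0.994 times, PDIA4 1.18 and 1.06 times and PDIA6 1.16 and 1.01 times. CALR was 1.77 times in the protrusion and 1.04 times in the cell body, CANX 1.44 and 0.966 times, P4HB 1.52 and 1.07 times, PPIB 1.48 and 1.05 times, and PDIA3 0.706 and 0.998 times. HYOU1, near the lower limit of use, was 0.652 and 1.31 times. CALR and CANX were highest in number 2 in both compartments, as were 16.9% of tested genes. Between compartments the stress genes showed no call, with limma log2 changes of -0.37 (adjusted p = 0.789) for DDIT3, -0.28 (adjusted p = 0.706) for XBP1, 0.07 (adjusted p = 0.901) for ATF4, -0.06 (adjusted p = 0.933) for HERPUD1 and -0.54 (adjusted p = 0.417) for DNAJB9. When both libraries of number 5 were left out, a choice made with the values in view, the log2 change of CALR was 0.70 (limma adjusted p = 0.252), that of P4HB 0.32, PDIA6 0.38 and HSP90B1 -0.43, and no member was called without a block.

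**Figure D5:**
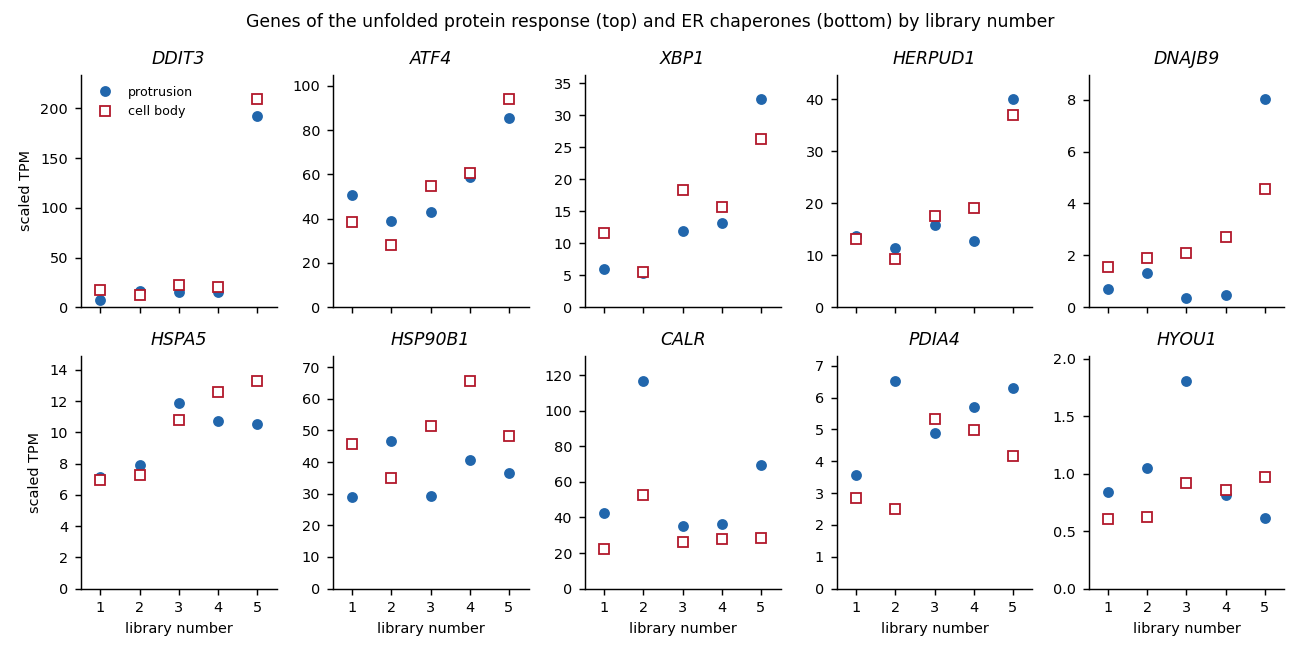
Scaled TPM (vertical axes, linear, from 0) by library number in protrusions and cell bodies, for 5 genes of the unfolded protein response in the upper row and 5 ER chaperones in the lower row. DDIT3 reaches 192 and 209 in number 5 and at most 22.9 elsewhere, while HSPA5 stays between 6.93 and 13.3 in all 10 libraries.

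The other folding factors of the ER moved in both directions, and whether their shares differ from those of all tested genes was not tested. Of 49 listed chaperones, co-chaperones, isomerases and oxidases, 46 were tested. Without the block 5 were higher in protrusions and 8 lower, where 4.28% of all tested genes were higher and 21.5% lower. With the block 12 were higher and 9 lower, beside 13.0% and 25.4%. The median log2 change was 0.12 against -0.03 for all tested genes. FKBP11, a prolyl isomerase of secretory cells, was 116 ± 18.6 against 72.0 ± 5.32 (limma log2 change 0.67, adjusted p = 0.00331). TXNDC12 (0.57, adjusted p = 0.0210), TXNDC5 (0.61, adjusted p = 0.0234), the prolyl isomerase FKBP2 (0.51, adjusted p = 0.0275) and the membrane oxidoreductase TMX4 (0.78, adjusted p = 0.0285) rose as well in limma's test. Apart from FKBP11, these calls of the fit without a block were lost when 1 library was left out, with adjusted p up to 0.0756 over them. TMX4 was lost without any of 7 single libraries, TXNDC5 and FKBP2 without any of 4 and TXNDC12 without any of 3, protrusion 5 and cell body 5 being among them for the last 3 genes. With the block and all libraries kept, TXNDC5, TXNDC12, FKBP2 and TMX4 were called (limma adjusted p = 0.00699, 0.00891, 0.0134 and 0.0147).

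Among the genes called lower, CNPY4, of the canopy family of ER proteins, was 3.36 ± 0.777 in protrusions and 33.7 ± 9.20 in cell bodies (limma log2 change -2.97, adjusted p = 4.31e-07). ERO1B, an oxidase that recharges the disulfide isomerases, ranged from 0.412 to 4.09 in protrusions and from 6.95 to 24.0 in cell bodies (-2.87, limma adjusted p = 3.68e-05), and UGGT1, the glucosyltransferase that returns misfolded glycoproteins to the lectins, 1.18 ± 0.411 against 5.05 ± 1.63 (-1.45, limma adjusted p = 0.000163). FKBP10, a prolyl isomerase that acts on collagen, fell by 1.71, SUMF2 by 0.89, FKBP14 by 0.82, TXNDC11 by 0.73 and PDIA5, a further disulfide isomerase, by 0.63 on the log2 scale. After rescaling to a common sum 4 of the 8 were still called, CNPY4, ERO1B, UGGT1 and FKBP10. As deposited and without a block, the call of TXNDC11 was lost without protrusions 2 or 4 or cell bodies 2 or 3 (adjusted p up to 0.0765). With the block and all libraries kept it was called (limma adjusted p = 0.0289). All 5 protrusions lay below all 5 cell bodies for 7 of the 8, TXNDC11 being the exception, and for 18.4% of all tested genes. The 8 were called from these same values, so this separation is no further support. Some were near the filter of 1 in protrusions, UGGT1 at 0.723 to 1.82 and PDIA5 at 0.761 to 1.59. With a filter of 5 in at least 5 libraries, 3 folding factors were called lower. Co-chaperones of HSPA5 were not called without a block: SIL1, an exchange factor like HYOU1, stood at 0.59 in log2 change (adjusted p = 0.192 without and 0.0303 with the block), DNAJB11 0.42 (adjusted p = 0.502) and SDF2L1, the partner of DNAJB11, 0.73 (adjusted p = 0.0742, and 0.00307 with the block). The count of 5 higher became 3, 2, 3, 3 and 1 without protrusions 1 and 5 and cell bodies 1, 2 and 5, and 2 without both libraries numbered 5.

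In ER-associated degradation, which removes what the chaperones cannot fold, 2 of 26 tested genes were higher in protrusions and 1 lower, and 5 and 1 with the block. Beside these counts, and those of the stress response below, 4.28% of all tested genes were higher and 21.5% lower. With the block the shares were 13.0% and 25.4%. UFD1, a cofactor of the extracting ATPase, was 76.9 ± 10.6 against 49.9 ± 12.0 (limma log2 change 0.64, adjusted p = 0.0260), and the ubiquitin ligase RNF5 61.5 ± 7.15 against 42.8 ± 7.14 (0.52, adjusted p = 0.0299), and both calls were lost without protrusion 4. UFD1 was also lost without protrusion 5, and RNF5 without protrusions 2 and 3 and cell bodies 2 and 5. These losses are those of the fit without a block. With the block and all libraries kept, UFD1 and RNF5 were called (limma adjusted p = 0.00276 and 0.0110). The ubiquitin-conjugating enzyme UBE2G2 fell from 18.5 ± 2.32 in cell bodies to 7.69 ± 1.64 (log2 change -1.18, limma adjusted p = 0.000206). Of the sensors and targets of the stress response, 0 of 16 were higher and 2 lower, and with the block 1 was higher (NFYC, a subunit of NF-Y, 0.56, adjusted p = 0.0126) and 2 lower. The lower ones were ATF6B, the homologue of ATF6, at 3.74 ± 1.94 against 65.0 ± 12.5 (limma log2 change -3.88, adjusted p = 3.22e-07), and PPP1R15B at 0.765 ± 0.330 against 2.48 ± 0.504 (-0.99, adjusted p = 0.00104). For these 2 lists together the 2 calls towards protrusions became 1 without protrusions 2, 3 or 5 or cell bodies 2 or 5, 0 without protrusion 4, and 0 without both libraries numbered 5.

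None of the partners of P4HB and PPIB in collagen modification was called higher in protrusions, from which nothing is read, since only 4.28% of all tested genes were. P4HB pairs with the catalytic subunits P4HA1 and P4HA2, whose log2 changes were 0.10 (adjusted p = 0.783) and -0.35 (adjusted p = 0.448) in limma's test. PPIB acts in a complex with CRTAP and the prolyl 3-hydroxylase P3H1. CRTAP was 25.9, 27.6, 28.1, 23.4 and 25.5 in protrusions 1 to 5 and 44.5, 74.3, 50.7, 47.5 and 60.5 in cell bodies 1 to 5, without overlap (log2 change -1.04, limma adjusted p = 0.000226). P3H1 fell by 0.57 on the log2 scale (adjusted p = 0.0402, up to 0.0999 without 1 library, and 0.386 after rescaling to a common sum) and P3H4, a related protein without the hydroxylase role, by 1.93 (adjusted p = 6.11e-06). In all, 3 of 9 tested genes of collagen modification were lower in protrusions and 0 higher, with no change of either count under the block. Of all tested genes, 21.5% were lower, and 25.4% with the block. Of the 3 receptors that return KDEL-bearing chaperones from the Golgi, KDELR1 was higher, at 26.2 ± 4.92 against 16.9 ± 3.17 (limma log2 change 0.60, adjusted p = 0.0295), a call lost without any of 5 single libraries (protrusions 3, 4 and 5 and cell bodies 2 and 5). With the block and all libraries kept, KDELR1 was called (limma adjusted p = 0.0128) and KDELR2 as well (0.38, adjusted p = 0.0327). Thus 2 of the 3 were higher in that fit, where 13.0% of all tested genes were.

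Set beside the members, the ER translocon list had 2 of 25 tested genes higher in protrusions and 0 lower, SSR4 (0.56, adjusted p = 0.0190) and SPCS3 (0.57, adjusted p = 0.0304), with a median log2 change of 0.16. With the block 4 were higher and 1 lower (SEC61G, -0.39, adjusted p = 0.00191), and after rescaling to a common sum 9 were higher and 0 lower. Of all tested genes, 4.28% were higher and 21.5% lower without the block. The shares were 13.0% and 25.4% with it, and 14.1% and 17.2% after rescaling. In the fit without a block SSR4 was lost without protrusion 1 or cell body 5, and SPCS3 without protrusions 1, 3, 4 or 5 or cell bodies 2 or 5. With the block and all libraries kept, SSR4 and SPCS3 were called (limma adjusted p = 0.000883 and 0.00819). Cytosolic chaperones had 0 of 31 higher and 6 lower in limma's test, against 4.28% and 21.5% of all tested genes, with a median log2 change of 0.16. With the block 5 were higher and 7 lower, against 13.0% and 25.4%. Nothing about these chaperones as a group is read from these counts. HSP90AA1, the inducible cytosolic HSP90, fell from 1224 ± 193 in cell bodies to 674 ± 88.2 (log2 change -0.86, limma adjusted p = 0.000429). The cyclophilin PPID fell by 1.08 on the log2 scale, HSPA1B by 1.01, DNAJC7 by 0.83 and DNAJB1 by 0.68. The call of HSPA1B was lost without any of 4 single libraries (protrusions 1 and 3 and cell bodies 4 and 5, adjusted p up to 0.0709) and that of DNAJB1 without any of 6 (protrusions 1, 3, 4 and 5 and cell bodies 4 and 5, up to 0.0963). With the block and all libraries kept, HSPA1B and DNAJB1 were called lower (limma adjusted p = 0.00120 and 0.0139). After rescaling to a common sum 8 genes of the list were higher and 2 lower, HSP90AA1 and PPIA, against 14.1% and 17.2% of all tested genes. HSPA1B has a near-identical paralogue, so its reads are uncertain. No member was called lower in the fit without a block, and whether the lists differ was not tested.

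The likeness of the members across the 10 libraries depended on the scaling. As deposited, the Pearson correlation of a member's log2 value with the mean of the other 9 was 0.955 for PDIA4, 0.702 for P4HB, 0.670 for PDIA6, 0.608 for PPIB and 0.511 for HSPA5, and between 0.0126 and 0.236 for CALR, HSP90B1, CANX, HYOU1 and PDIA3. The same correlations were higher after rescaling to a common sum, at 0.330 for CALR, 0.514 for HSP90B1, 0.603 for CANX, 0.631 for HYOU1, 0.705 for PDIA3, 0.829 for HSPA5 and 0.856 to 0.966 for the other 4. These values are a description over 10 libraries that share their scaling and their division into 2 compartments. The genes outside the group whose pattern was most like the members' mean were ACSF3 (0.961), CHMP1A (0.958), IFFO1 (0.944), DUS1L (0.942), MAGED2 (0.928) and APMAP (0.922). After rescaling to a common sum they were ASPHD1, MBD3, CCT6A, PGK1, IFFO1 and CLTA, at 0.977 to 0.992, so that IFFO1 alone was in both sets of 6.

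Checks of the libraries bear on all of these values. RAB13, an established protrusion message, was 247 ± 45.5 in protrusions and 40.3 ± 8.34 in cell bodies. The nuclear RNAs MALAT1 (7.01 ± 10.3 against 85.2 ± 41.0) and NEAT1 (0.879 ± 1.07 against 4.87 ± 1.78) were low in protrusions, each without overlap. Of the 6 mesenchymal markers, VIM was at 588 ± 119.8 (protrusions) and 596 ± 68.8 (cell bodies) and CD44 at 56.6 ± 13.1 and 47.5 ± 6.34. AXL had means of 42.8 and 36.1 and MSN of 20.3 and 16.9, while FN1 (3.88 and 2.94) and TGFBI (3.90 and 2.26) were low. The 6 summed to 559 to 890.4 and 642 to 819.9, mostly VIM. The 9 luminal markers in the table, mostly KRT8 and KRT18, summed to 337 to 468 and 236 to 393, with the progesterone receptor PGR at or near 0. Summed over the 5 blood markers in the table, protrusions had 0.0740 to 2.67 and cell bodies 9.68 to 20.3, nearly all from LYZ, with the pan-leukocyte PTPRC at 0 in each cell body and at most 0.872 in a protrusion, and their part in the results was not tested. Fibroblast markers summed to at most 3.90 in any library. Where strand was ignored in counting, reads of overlapping antisense genes would be shared, which touches 27.2% of the exon bases of PPIB, 25.2% of PDIA6, 18.9% of PDIA3, 9.98% of P4HB and 8.66% of HYOU1 in the GENCODE 29 annotation. The partners SNX22, ATP6V1C2 and ELL3 were listed at no more than 0.527, 0.163 and 0.687, and CATSPER2P1, also opposite PDIA3, at no more than 3.36. CALR shared 9.95% of its exon bases with AC092069.1, listed at 0 in all protrusions and at up to 16.8 in a cell body. HSP90B1 shared 2.79% with genes of its own strand and 4.81% with the other, among them C12orf73 at 9.12 to 17.7.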

How the data were processed

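Polyadenylated RNA of 5 protrusion and 5 cell body libraries was analysed from the authors' deposited table of 1 signal value per gene and library. The tools listed, with no role or setting, included StringTie 1.3, HISAT2, FastQC 0.10.1 and cutadapt 1.10, per the submitters' processing notes. Neither build, annotation nor strandedness is given in the labels or headers used here. The unit is not named. In each library 99.6% to 100% of the deposited signal values below 2 were whole multiples of 1 step (tolerance 0.00051), as for TPM rounded and multiplied by 1 factor per library, so they are called scaled TPM. TPM keeps no depth, so the depth is unknown and no counting interval is given. Columns of the authors' own comparison were not used.

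Genes at 1 or more in at least 5 of 10 libraries were tested (10894) on log2(value + 1) with limma 3.58.1 in R 4.3.3 (empirical Bayes with trend, two-sided, Benjamini-Hochberg adjustment over all tested genes, threshold 0.05). The fit without a block was tested on simulated data with independent libraries, which does not bear on the blocked fit. Fold changes of low genes are understated on this scale. Ratios of paralogues used exact permutation tests. The numbers were taken to pair the libraries, because deviations from the group means correlated between same-numbered libraries at 0.236, 0.577, 0.392, 0.329 and 0.264, each above 0.1. Libraries of different numbers correlated at -0.433 to 0.289, 2 of these pairs above 0.1 (0.289 and 0.225, between numbers 3 and 4). The alternatives were the replicate block, other scalings, pseudocounts and filters, robust fitting and left-out libraries. Named genes were all members, their paralogues, fixed stress and partner genes, up to 6 called genes of each list by smallest p, and the 6 most alike genes. FKBP2, TMX4, TXNDC5, TXNDC12, FKBP14, TXNDC11, PDIA5, CREB3L2, CEBPB, TRIB3, NFYC, KDELR2, SEC61G, CHAC1 and PPP1R15A were named outside this rule, after their values were seen. The members and lists were chosen with earlier results of these data known.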

Additional observations from a re-analysis of the deposited data

Results flagged for a closer look

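Over 54 sets of 5 libraries (27 genes in each compartment), 12 single libraries stood far from the other 4 of their compartment, by a gap of more than 0.71 of the whole range. Chance flags about 1 in 20 sets that are independent and not chosen by their values. Here some genes were named after their values had been seen and 10 of the 12 lie in 1 pair of libraries, so this rate is no measure for them. CALR was 52.8 in cell body 2 and 22.3 to 28.3 in the other cell bodies. HSP90AB1 was 347 in protrusion 4 and 244 to 271 in the other protrusions. The other 10 were all in number 5. DDIT3 was 192 in protrusion 5 and 209 in cell body 5, against at most 16.3 and 22.9 in the others. HERPUD1 was 40.0, XBP1 32.5 and DNAJB9 8.01 in protrusion 5, against at most 15.8, 13.2 and 1.31. PPP1R15A was 31.3 in cell body 5, against at most 16.3. CHAC1 was 4.11 in protrusion 5 and 2.76 in cell body 5, against at most 0.0160 and 0.493. HSPA8 was lowest in number 5, at 186 in the protrusion and 178 in the cell body, against at least 368 and 524.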

How the results depend on the processing

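With the replicate block, members called higher went from 0 to 3, all genes from 466 to 1412, other folding factors from 5 to 12 and stress and degradation genes from 2 to 6. After rescaling to a common sum these counts were 2, 1533, 9 and 5, after quantile normalization 2, 1903, 9 and 11, after median-of-ratios scaling 2, 1132 and 9 for the first 3, and after common-sum scaling with the block 6, 3677, 22 and 20. The 2 members were CALR and P4HB under the common-sum and median-of-ratios scalings, but P4HB and PDIA4 (0.76, adjusted p = 0.0182) under quantile normalization, where CALR was at 0.84 (adjusted p = 0.0729). Without both libraries numbered 5 the counts were 0, 186, 2 and 0. Without both numbered 2, 1 member was called higher and 1 lower, and 1 stress or degradation gene higher. Folding factors called lower, 8, became 4 (common sum), 5 (quantile) and 3 (filter of 5), and all genes called lower, 2340, became 3975 with no filter and 1073 with a filter of 5. Changes of sign were confined to HSPA5, CANX and PDIA3 among the members, over the alternatives run. HSPA5 was 0.27, 0.22 and 0.08 under the common-sum, quantile and median-of-ratios scalings, 0.27 with common sum and block, and 0.01 without both numbered 5, with or without the block. PDIA3 was 0.31, 0.08 and 0.11 under those scalings, 0.31 with common sum and block, 0.09 without both numbered 5, and 0.03 with the block and without both numbered 4. CANX was -0.01 without both numbered 5. The log2 ratio of PPIB to PPIA lost its call at 0.98 in pairs, 0.33 after quantile normalization and 0.89 without both numbered 5, with p at the smallest value the design allows in the first and last of these, so that their loss says little about stability, and that of HSP90B1 to HSP90AB1 gained one at -0.49 without both numbered 2. The causes were not tested. The alternatives without number 5, with common sum and block together, and with the block and 1 number left out were chosen after seeing the data. Leaving out 1 library at a time gave 0 to 1 members called higher (CALR, without cell body 2) and 0 lower, 257 to 649 genes higher and 2136 to 2576 lower, 1 to 7 folding factors higher and 7 to 10 lower, and 0 to 3 stress and degradation genes higher and 3 lower. The log2 changes then ran from -0.17 to 0.05 for HSPA5, -0.03 to 0.22 for CANX and -0.24 to 0.11 for PDIA3, and the log2 ratios from 0.83 to 1.07 for PPIB to PPIA, -0.48 to -0.26 for HSP90B1 to HSP90AB1 and 0.03 to 0.73 for HSPA5 to HSPA8. As deposited, the block changed the calls of CALR, P4HB and PDIA6 among the members. After common-sum scaling, where CALR and P4HB were already called, it added CANX, PDIA4, PDIA6 and PPIB.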
